A study of Mus musculus with 5 samples.

Results

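The C1q interstitial macrophages of the fetal mouse lung were selected on measured values, as barcodes that carried transcripts of the complement C1q genes and few transcripts of alveolar macrophage genes. A member had at least 1 UMI (a count of 1 captured RNA molecule) of Tyrobp or Laptm5, at least 3 of C1qa, C1qb, C1qc and Ms4a7, and at most 2 of Ear2, Lpl, Plet1, Abcg1 and Olr1. It had 0 UMIs of Epcam, Cdh5 and Pdgfra, which mark epithelium, endothelium and mesenchyme, and it did not carry Mki67 and Top2a together. The rule found 1305 members among 19491 kept barcodes (those with 500 genes or more and no more than 15% of UMIs from mitochondrial genes), of 50355 deposited. The values of the genes the rule reads are given as a description, with no test.

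Whole lungs of embryos at stage E18.5 were dissociated, treated to lyse red cells and sequenced as 1 droplet library per embryo. The control group, Het, held 2 Zswim8+/- embryos (Het1 and Het2), and the other group, KO, held 3 Zswim8-/- embryos (KO1, KO2 and KO3), so all 5 embryos carried at least 1 mutant allele. The comparison asked how the loss of Zswim8 alters RNA in the tissue. With 2 libraries against 3, an exact permutation test cannot give a p-value below 0.1, and p-values measure the spread between these libraries.

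Interstitial macrophages lie in the connective tissue around airways and vessels, whereas alveolar macrophages settle on the air side of the epithelium around birth. C1qa, C1qb and C1qc encode the chains of C1q, the recognition protein of the classical complement pathway, which tissue macrophages secrete and which helps them to take up dying cells. ZSWIM8 is the substrate receptor of a ubiquitin ligase that degrades Argonaute proteins bound to microRNAs on certain target RNAs, a process that destroys those microRNAs. Interferons act through receptors on the cell surface, and their signal switches on a shared set of antiviral and sensor genes in most cells.

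Zswim8 itself was at 34.6 and 36.5 CPM (counts scaled by the library total in the usual way) in Het members, taken in the order of the embryos' numbers here and below, and at 26.8, 39.7 and 34.1 CPM in KO members. The groups overlapped (log2 fold change -0.08, adjusted p = 0.943 by edgeR's quasi-likelihood test with Benjamini-Hochberg adjustment), and the count at a transcript's 3′ end does not check a deletion elsewhere, so KO below means the libraries labelled so. KO1 and KO2 had the Xist transcripts of female embryos, and KO3, Het1 and Het2 the Y-linked transcripts of males, so sex is partly shared with genotype. Members had a median of 8545.5 and 7180 UMIs in Het and of 10177, 8540 and 9751.5 UMIs in KO. No member barcode was shared between libraries.

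The label was checked with Mrc1 and Cx3cr1, which the rule does not read. Mrc1, the mannose receptor, was present in 76.8% and 78.2% of Het members and in 82.1%, 82.7% and 83.3% of KO members after each cell was thinned to 3000 UMIs, against 0% to 2.08% of epithelial barcodes. Cx3cr1, the fractalkine receptor, was found in 77.4% to 85.5% of thinned members, against at most 1.16% of epithelial barcodes. The nearest classes carried both genes as well. Before thinning, Mrc1 was in 74.6% to 85.2% of members, 57.5% to 65.2% of alveolar-gene macrophages and 4.51% to 7.77% of monocytes. Cx3cr1 was in 79.8% to 87.7% of members, 25.1% to 30.9% of alveolar-gene macrophages and 39.3% to 48.99% of monocytes. The 6 marker genes of the class summed to between 11440 and 12239 CPM in the members of every library. The rule reads 4 of them (C1qa, C1qb, C1qc and Ms4a7), so this sum follows from the selection and does not check the label. Monocyte markers summed to 888 and 896 CPM in Het members and to 419, 331 and 466 CPM in KO members, and dendritic cell markers to 89.0 and 113 CPM against 56.2, 50.1 and 57.6 CPM. B cell markers summed to 51.2 to 75.1 CPM, endothelial markers to 23.8 to 46.1 CPM and epithelial markers to 379 to 788 CPM. Markers of T, NK and innate lymphoid cells summed to 8.21 and 17.3 CPM in Het members and to 2.15, 0 and 5.81 CPM in KO members.

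Members were set beside all other kept barcodes with Tyrobp or Laptm5, many of which also held markers of epithelium, endothelium or mesenchyme. The monocyte-attracting chemokine Ccl12 led with a mean of 962 CPM in members and 29.99 CPM elsewhere (log2 ratio 4.97), followed by the Fc receptor-like gene Fcrls (643 against 22.7 CPM) and the crystallin gene Crybb1 (189 against 6.29 CPM). Among the 25 leading genes were also the chemokines Ccl7, Ccl2, Ccl24 and Pf4, the iron exporter Slc40a1, the haemoglobin scavenger receptor Cd163, the folate receptor Folr2 and the transcription factor Maf. Apoe, the lipid carrier, had the highest level of them, with a mean of 17195 CPM. Pf4 reached 4784 CPM. This ratio follows from how the cells were chosen and was not tested.

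At the lower edge of the rule, barcodes with exactly 3 of the 4 C1q-set genes had 980 to 1509 CPM of C1qa. Those with exactly 2, just outside, had 107 to 173 CPM. C1qa is 1 of the 4 genes counted, so this gap is partly set by the rule. The rule does not read Mrc1, which lay between 25.7 and 103 CPM just outside, against 295 to 592 CPM just inside. Members with exactly 2 alveolar genes had 1047 to 1894 CPM of Mrc1, while the 1 to 12 barcodes per library with exactly 3 had 0 to 587 CPM. Only 2.51% to 6.53% of barcodes with at least 3 C1q-set genes carried 3 or more alveolar genes.

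C1q macrophages made up a larger share of the KO lungs. They were 3.86% of kept barcodes in Het1 (186 of 4820; exact 95% binomial interval 3.33% to 4.44%) and 4.12% in Het2 (173 of 4204; 3.53% to 4.76%). In KO1 they were 8.85% (277 of 3129; 7.88% to 9.90%), in KO2 9.36% (311 of 3324; 8.39% to 10.4%) and in KO3 8.92% (358 of 4014; 8.05% to 9.84%). Each KO library lay above both Het libraries, and the male KO3 was as high as the female KO1. The means were 3.99% ± 0.18 (SD, n = 2) and 9.04% ± 0.27 (SD, n = 3), a ratio of 2.27, with an exact two-sided permutation p = 0.1, the smallest this design allows. The intervals cover counting error only. Some members held at least 3 markers of epithelium, endothelium or mesenchyme. Without them the shares were 2.72% and 3.00% in Het and 5.18%, 8.57% and 6.65% in KO.

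**Figure D1:**
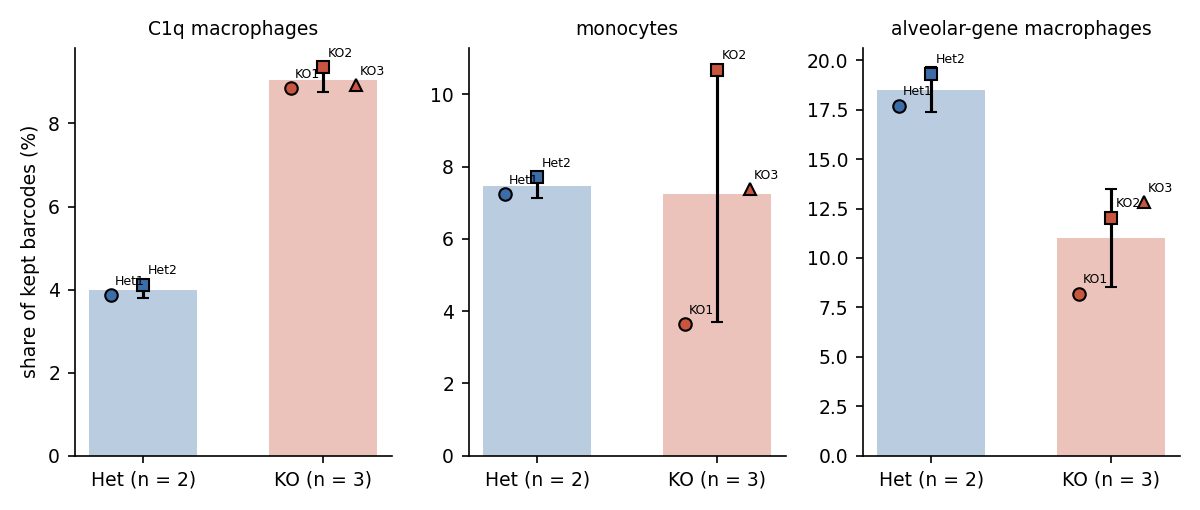
Share of kept barcodes (%) in each library for C1q macrophages, monocytes and alveolar-gene macrophages; bars are group means, error bars SD, points single libraries. The C1q macrophages of the 3 KO libraries sit between 8.85% and 9.36%, above the 2 Het libraries, while monocyte shares overlap.

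A share can move because other cells move. The numbers of 10 classes were also fitted with edgeR's quasi-likelihood test, scaled by all kept barcodes of each library. This fit therefore tests shares too and cannot separate a rise of members from a fall of other cells. C1q macrophages had a log2 change of 1.18 (SE 0.19, Benjamini-Hochberg adjusted p = 0.00856). The other 9 classes did not pass the test. Alveolar-gene macrophages (barcodes with at least 3 of the 5 alveolar genes) were 18.51% ± 1.14 of kept barcodes in Het (SD, n = 2) and 11.01% ± 2.48 in KO (SD, n = 3), with an adjusted p of 0.126 in edgeR. Monocytes were 7.47% ± 0.33 and 7.23% ± 3.52 of barcodes. Among barcodes with Tyrobp or Laptm5, members were 6.14% in each Het library and 20.1%, 14.4% and 13.6% in KO1, KO2 and KO3. Many of these barcodes held at least 3 markers of epithelium, endothelium or mesenchyme. In Het1, 1432 of 3028 did not. Without such barcodes, members were 9.15% and 8.09% in Het and 24.5%, 18.6% and 19.3% in KO.

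Barcodes that met the rule apart from carrying both Mki67 and Top2a, genes of dividing cells, were 13.1% and 14.4% of the class with them included in Het, and 5.46%, 9.86% and 10.1% in KO. These genes are read by the rule, so the difference was not tested.

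Lyve1, a hyaluronan receptor of vessel-associated macrophages, divided the members. Lyve1 was detected in 28.2% and 42.7% of thinned Het members and in 26.01%, 32.1% and 35.5% of thinned KO members, against 3.88% to 6.49% of thinned epithelial barcodes, and the groups overlapped (exact permutation p = 0.6). Members with Lyve1 had 117 to 184 CPM of Folr2, against 28.6 to 37.4 CPM in those without it. Cd163 stood at 84.8 to 200 CPM against 25.5 to 63.8 CPM. Ccr2, the receptor that draws monocytes out of the blood, had the opposite order, at 6.32 to 36.1 CPM in members with Lyve1 and 112 to 291 CPM in those without. The same order was present in each of the 5 libraries, and it is a description of cells split by 1 gene. Members with Lyve1 had median UMIs of 8782 and 9632.5 in Het and of 9266, 10292.5 and 11050 in KO. Members without it had 8333 and 5120 in Het and 10416.5, 8253 and 8004 in KO. The part of this depth was not tested.

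Gene levels were then compared between Het and KO on UMIs summed over the members of each library. Of 10092 genes tested, 94 were lower in KO (0.931%) and 8 were higher (0.0793%) at an adjusted p under 0.05 by edgeR's quasi-likelihood test with Benjamini-Hochberg adjustment. The median log2 fold change over all genes was -0.0043. Among the lower genes were 24 listed interferon-stimulated genes, 8 stefin A genes, 4 listed neutrophil markers and 4 haemoglobin genes. Without Het1 the number called fell from 102 to 21. With sex as a covariate it was 44. Of the 27 genes that the naming limits chose, 24 lost their calls without Het1, 11 without Het2 and 18 with sex as a covariate.

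**Figure D2:**
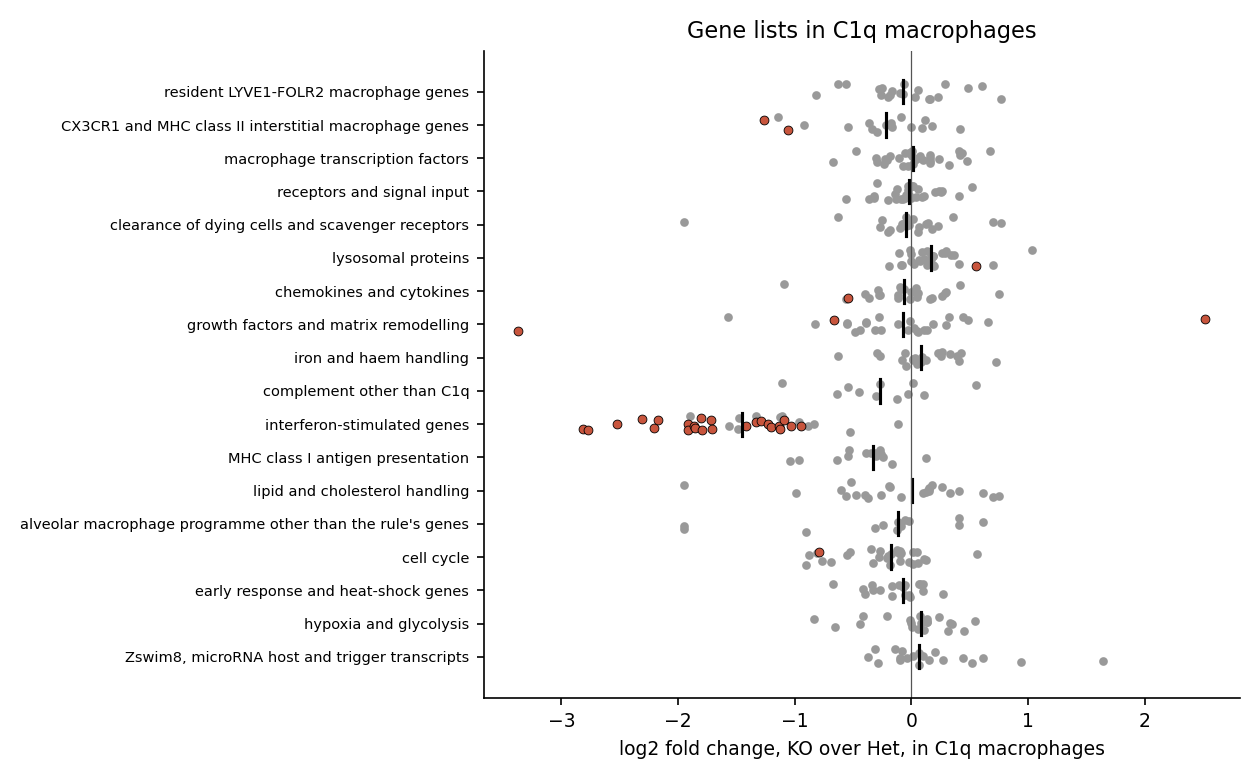
Log2 fold change (KO over Het) in summed C1q macrophages for the genes of 18 lists; each point is a gene, red points passed the adjusted threshold of 0.05 and black bars are list medians. The interferon-stimulated list lies to the left with a median of -1.45, and the other medians lie between -0.33 and 0.17.

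Interferon-stimulated genes fell in KO members. Of 39 listed genes, 36 could be tested. Of these, 24 were lower (0.931% of all genes were), 0 were higher, and the list's median log2 fold change was -1.45. All 36 had a negative fold change, and in KO2 and KO3 each of the 36 lay below both Het libraries, as did 34 of them in KO1, while 13.9% of all genes tested had every KO library below both Het libraries. Mx1, Mx2 and Ifi44 were too low to test. Without Het1, 4 of the 36 were called, without Het2 11 and without KO3 13, with medians of -1.33, -1.56 and -1.30. With sex as a covariate 9 were called, at a median of -1.74.

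Rsad2 (chromosome 12, 26442746 to 26456452), which encodes the antiviral enzyme viperin, had 105 and 62.8 CPM in the Het libraries and 16.1, 3.14 and 16.0 CPM in the KO libraries. The lowest Het value was several times the highest KO value (log2 fold change -2.82, SE 0.37, edgeR adjusted p = 0.00207). Red-cell barcodes also carried Rsad2, at a level per barcode that Het members exceeded 5.46 times, and Rsad2 did not pass without Het1 or with DESeq2. Ifit3 (chromosome 19, 34583531 to 34588731), an RNA-binding antiviral protein, had 55.9 and 51.1 CPM in Het and 16.8, 6.28 and 9.57 CPM in KO (log2 fold change -2.31, SE 0.28, edgeR adjusted p = 0.00123). Ifit3 passed the test in all 19 alternative analyses. Its near copy Ifit3b had 12.7 and 8.76 CPM against 3.21, 1.05 and 0.563 CPM, and reads of the 2 genes may not be separable. Oasl1, a member of the oligoadenylate synthetase family, fell by 2.52 on the log2 scale (edgeR adjusted p = 0.0164). The Oasl1 call was lost without Het1, without KO3 or with sex as a covariate. Ifit3b kept its call in 10 of 18 alternatives and lost it, among others, without Het1, Het2, KO2 or KO3.

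Isg15 (chromosome 4, 156199424 to 156200818), a ubiquitin-like protein that is joined to other proteins during the response, had 230 and 162 CPM in Het and 101, 27.2 and 42.8 CPM in KO. The KO1 value was the closest to Het, as it was for 35 of the 36 genes among the KO libraries. The log2 fold change was -1.80 (SE 0.35, edgeR adjusted p = 0.0269). Ifitm3, a membrane protein that blocks virus entry, was the most abundant called gene of the list, with 1161 and 947 CPM in Het and 651, 381 and 450 CPM in KO (log2 fold change -1.09). The broad repressor Usp18, which removes Isg15 from proteins, had 30.6 and 22.6 CPM against 11.1, 3.14 and 7.04 CPM.

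Ifih1, the MDA5 sensor of double-stranded RNA, had 48.6 and 44.5 CPM in Het and 26.1, 17.8 and 19.99 CPM in KO, and its log2 fold change was -1.13 (edgeR adjusted p = 0.0115). Stat2, a transcription factor that carries the interferon signal, had 48.6 and 51.1 CPM against 28.9, 16.4 and 18.9 CPM. It passed the test, with a log2 fold change of -1.23 (edgeR adjusted p = 0.0167). Irf7, the factor that amplifies interferon production, had 125 and 116 CPM against 80.3, 17.1 and 33.2 CPM and did not pass it (edgeR adjusted p = 0.113). Cxcl10, a chemokine that interferon induces, differed least, with a log2 fold change of -0.12 and overlapping groups. The receptor genes Ifnar1 and Ifnar2 had log2 fold changes of -0.02 and -0.14 and did not pass.

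**Figure D3:**
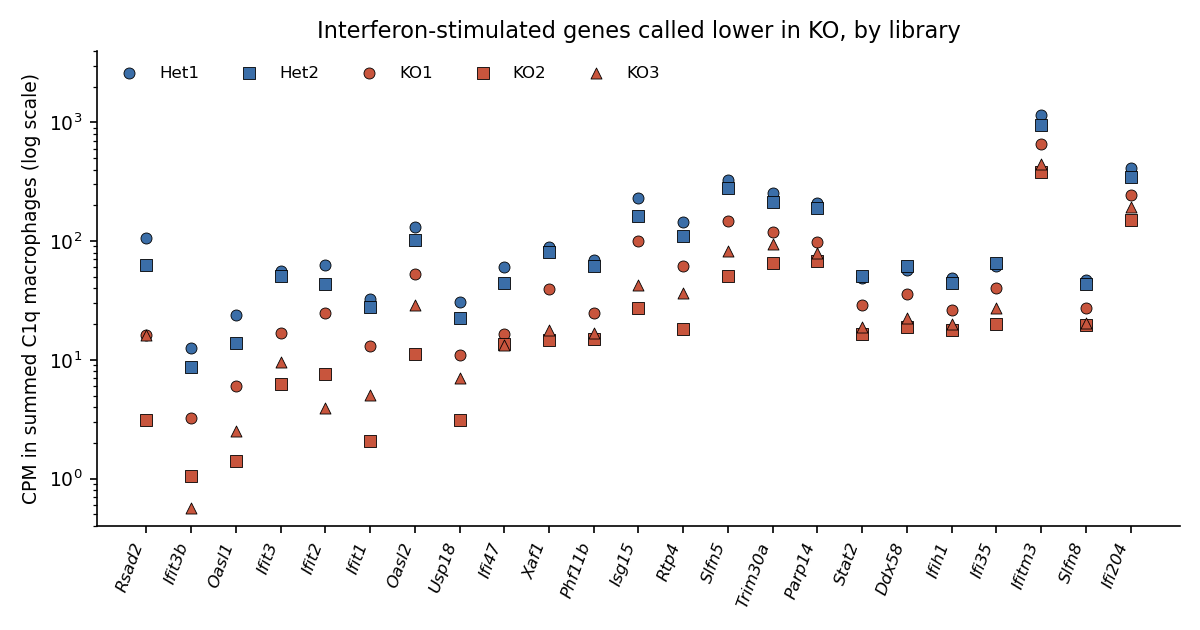
CPM (log scale) of interferon-stimulated genes called lower, in the summed C1q macrophages of each library; blue marks Het, red KO. Both Het libraries lie above all 3 KO libraries for each gene shown, and KO1 is mostly the highest of the KO libraries, as for Isg15 at 101 CPM.

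Promoters of the listed genes were searched for the sequence that interferon-activated factors are known to bind, and examples are shown because the list moved together. RefSeq promoters (250 bases before to 50 after each start, GRCm38.p6) were matched for 29 of the 39 listed genes. They were searched on both strands for the motif GAAANNGAAA, the core of the interferon-stimulated response element. It was found for 17 of the 29 (58.6%), against 3.99% of 27025 genes with a promoter in the table. Of the 19 matched genes called lower, 13 had it. The list was made of genes that interferon switches on, so this share says nothing about the difference between Het and KO. In the lines that follow, capitals mark the motif or its reverse complement, the strand is that of the gene, and a match is a description and not a site of binding.
Isg15, chr4:156200877-156200906, minus strand: tatgccgtagGAAAAGGAAAccgaaacaga
Ifit3, chr19:34583363-34583392, plus strand: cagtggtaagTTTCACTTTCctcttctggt
Rsad2, chr12:26456553-26456582, minus strand: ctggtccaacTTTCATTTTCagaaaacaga
Ifitm3, chr7:141010723-141010752, minus strand: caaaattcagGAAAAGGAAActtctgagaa

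The listed interferon-stimulated genes were also counted cell by cell. Members were thinned to 3000 UMIs, which left out 44 and 49 shallower members in Het and 54, 68 and 71 in KO. This measure was chosen after the gene values were seen. The mean number of listed interferon-stimulated genes detected per member was 8.13 and 7.19 in the Het libraries and 5.09, 2.92 and 3.51 in the KO libraries. The group means were 7.66 ± 0.66 (SD, n = 2) and 3.84 ± 1.12 (SD, n = 3), an exact permutation p of 0.1. At least 5 of the genes were found in 74.6% and 67.7% of Het members and in 46.6%, 17.7% and 23.7% of KO members. Before thinning, the median member carried 12 and 9 of the genes in Het and 8, 4 and 5 in KO.

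**Figure D4:**
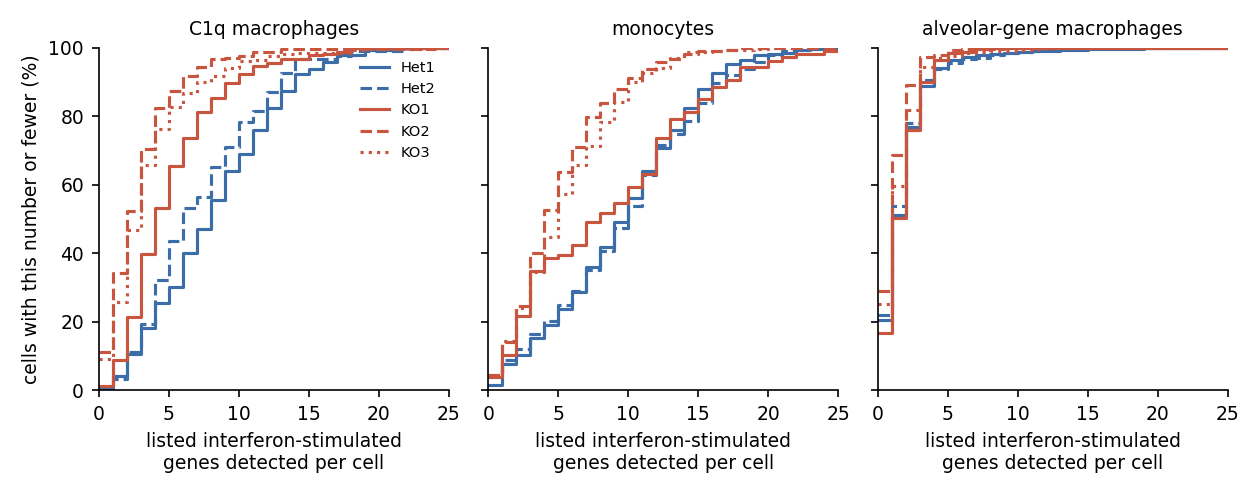
Cumulative share of cells (%) by the number of listed interferon-stimulated genes detected after thinning to 3000 UMIs, 1 line per library. In C1q macrophages the Het lines lie to the right, with a mean of 7.66 genes per cell against 3.84 in KO, and KO1 runs between the others.

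Monocytes and alveolar-gene macrophages bracketed the C1q macrophages in interferon gene level. The 37 listed genes in the files' sums came to 5843 and 4899 CPM in Het members and 3498, 1756 and 2247 CPM in KO members. In monocytes they were 9817 and 8718 CPM in Het and 7918, 4662 and 5373 CPM in KO. In alveolar-gene macrophages they were 848 and 768 CPM against 772, 525 and 654 CPM. In a fit of its own, the list had a median of -0.93 in monocytes, with 0 of 36 genes called lower (2 of 9915 genes were, 0.0202%). In alveolar-gene macrophages its median was -0.65, with 8 of 31 called (486 of 11313 genes, 4.30%). Epithelial barcodes were not fitted. Before thinning, Isg15 was in 15.8% and 12.6% of them in Het and in 7.78%, 5.54% and 4.52% in KO. Ifitm3 was in 50.3% and 48.9% of them in Het and in 52.8%, 54.3% and 48.9% in KO, so its groups overlapped.

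The difference between classes was tested as a genotype by class term. Against monocytes the interferon list had a median term of -0.54 (-0.02 over all genes), negative for all 36 genes (52.2% of all genes), and Ifitm3 and Xaf1 passed (0.204% of all genes did). Against alveolar-gene macrophages the median term was -0.68 (0.0053 over all genes). It was negative for 30 of the 36 genes (49.5% of all genes) and 6 passed (1.77% of all genes), among them Bst2, Ifi27l2a, Ifitm3, Parp14 and Trim30a. Monocyte markers, given above, were also higher in Het members. Their part in the interferon result was not tested. With members required to carry all 4 C1q-set genes and at most 1 alveolar gene, 26 of 35 interferon genes were called lower, with a median of -1.62.

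**Figure D5:**
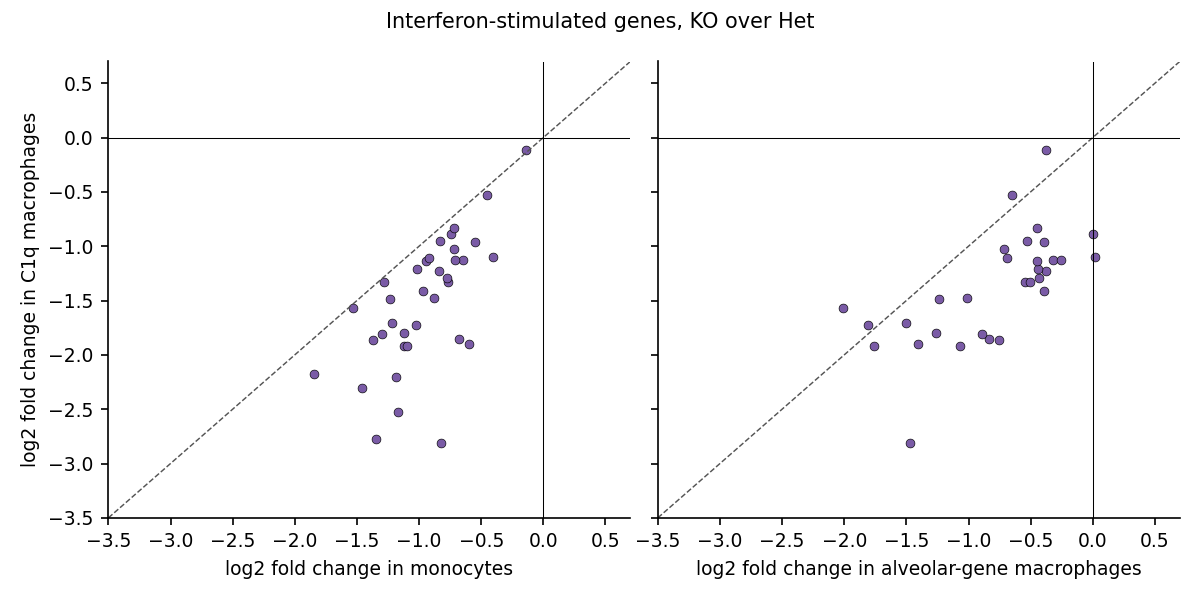
Log2 fold change (KO over Het) of listed interferon-stimulated genes in C1q macrophages (vertical axis) against that in monocytes (left) and alveolar-gene macrophages (right); each point is a gene and the dashed line marks equal change. Most points lie below the line, and the list medians are -1.45, -0.93 and -0.65.

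H2-Aa and H2-Ab1 of MHC class II, which presents peptides to helper T cells, fell in the summed members. H2-Aa had 93.2 and 108 CPM in Het and 45.7, 33.5 and 45.9 CPM in KO (log2 fold change -1.26, edgeR adjusted p = 0.00126). H2-Ab1 had 75.9 and 92.7 CPM against 48.9, 31.0 and 41.1 CPM (log2 fold change -1.06, edgeR adjusted p = 0.0109). These were the 2 genes called among 17 of the list of CX3CR1 and MHC class II macrophage genes, whose median was -0.22. Only 0.965% to 3.07% of members carried H2-Aa. Without barcodes that held at least 3 markers of epithelium, endothelium or mesenchyme, the log2 fold changes were -0.27 and -0.10 and neither was called (edgeR adjusted p = 0.899 and 0.976). The dendritic cell markers, given above, had a higher sum in Het members, but their list includes H2-Ab1, so that sum partly repeats its fall. The part of dendritic cells was not tested. H2-Ab1 kept its call in 12 of 18 alternatives and lost it, among others, without Het1, without Het2 or with sex as a covariate. The invariant chain Cd74 had overlapping groups (log2 fold change -0.09).

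Among genes that rose, Spp1 had the largest change of those that met the naming limits. Spp1 (chromosome 5, 104435118 to 104441050), which encodes osteopontin, a secreted matrix protein, had 6.66 and 16.8 CPM in Het and 56.4, 98.0 and 45.9 CPM in KO. The groups were well apart (log2 fold change 2.52, SE 0.41, edgeR adjusted p = 0.00838). It was found in only 3.76% and 4.62% of Het members and in 8.30%, 7.40% and 7.82% of KO members before thinning, and in 0% to 2.54% of epithelial barcodes. Alveolar-gene macrophages carried Spp1 in 21.6% and 21.7% of Het barcodes and in 7.81%, 12.8% and 18.48% of KO barcodes. Spp1 kept its call in 14 of 19 alternatives. It did not pass without Het1, with sex as a covariate (edgeR adjusted p = 0.0502), without members holding neutrophil markers (0.08003), with the rule applied to thinned barcodes (0.0796) or with the stricter rule of all 4 C1q-set genes and at most 1 alveolar gene (0.236).

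Ctsd, the lysosomal protease cathepsin D, rose from 861 and 755 CPM in Het to 1270, 1116 and 1174 CPM in KO (log2 fold change 0.55, SE 0.11, edgeR adjusted p = 0.0238). It was the 1 gene called among 31 lysosomal genes, whose median was 0.17. Of these, 24 had a positive fold change, as did 4971 of all 10092 genes tested. Cathepsin B, encoded by Ctsb, had 1776 and 1940 CPM against 2575, 2246 and 2235 CPM and did not pass (edgeR adjusted p = 0.192). The call for Ctsd was lost without Het1, without Het2 or with sex as a covariate.

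The other risers were Matn4, Gstm1, Socs2, Zfp622 and Gm1673, with log2 fold changes of 1.18, 0.97, 0.97, 0.85 and 0.84. Gstm1, a glutathione transferase, had 31.3 and 32.8 CPM in Het and 69.2, 61.7 and 58.3 CPM in KO. Socs2, a feedback inhibitor of cytokine and growth hormone signals, had 36.6 and 31.4 CPM against 56.4, 80.9 and 63.6 CPM. Zfp622 had 95.9 and 81.0 CPM against 158, 179 and 144 CPM. Matn4, a matrix protein, had 22.0 and 22.6 CPM against 48.5, 62.1 and 42.0 CPM, and 51.4% to 68.6% of epithelial barcodes carried it. Epithelial markers summed to 655 and 551 CPM in Het members and to 788, 379 and 490 CPM in KO members. Without barcodes that held markers of epithelium, endothelium or mesenchyme, Matn4 (edgeR adjusted p = 0.269) and Gm1673 did not pass. Each of the 5 calls was lost without Het1, without Het2 and with sex as a covariate.

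Several genes outside the interferon list fell by smaller amounts. Ccl12 (chromosome 11, 82101845 to 82103400), the leading gene of the class, had 1276 and 1115 CPM in Het and 856, 851 and 759 CPM in KO (log2 fold change -0.54, SE 0.11, edgeR adjusted p = 0.0254). It was the 1 called of 25 chemokine and cytokine genes. Its neighbour in function Ccl7 had 414 and 594 CPM against 532, 512 and 467 CPM, with a log2 fold change that rounded to zero. Ccnd1, which encodes cyclin D1, had 218 and 212 CPM against 148, 99.4 and 127 CPM (log2 fold change -0.79), and was the 1 called of 30 cell cycle genes. Tgfbi, a matrix protein induced by TGF-beta, had 174 and 202 CPM against 111, 111 and 132 CPM (log2 fold change -0.67). Ccl12, Tgfbi and Ccnd1 kept their calls in 14, 13 and 11 of 19 alternatives. All 3 calls were lost without Het1, without Het2, without KO2 or with sex as a covariate, and those of Ccl12 and Ccnd1 also without KO3.

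Genes of neutrophil granules and of the stefin A cluster, which encodes small protease inhibitors, were among those that fell most. Csta2 had 216 and 37.9 CPM in Het and 4.28, 4.18 and 13.5 CPM in KO (log2 fold change -4.05, edgeR adjusted p = 0.00356). Lcn2, an iron-trapping granule protein, had 89.3 and 49.6 CPM against 2.14, 8.37 and 7.60 CPM (log2 fold change -3.49, edgeR adjusted p = 0.000492). Olfm4, Wfdc21, Cstdc4, Cstdc5, Stfa1, Stfa2, Stfa2l1 and Stfa3 had log2 fold changes between -3.80 and -2.77. In all, 8 stefin A genes and 4 listed neutrophil markers were called, and stefin genes share sequence, so reads may be divided among copies. Mmp9, a granule protease and the remaining gene called on the growth factor and matrix list, had 21.3 and 3.65 CPM against 0.357, 1.05 and 1.97 CPM, and was not called without Het1.

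Members with at least 3 of the 8 neutrophil markers numbered 12 and 10 in Het (6.45% and 5.78%) and 5, 5 and 3 in KO (1.81%, 1.61% and 0.838%). They held 93.2%, 88.7%, 8.81%, 70.1% and 84.5% of the neutrophil-marker UMIs of Het1, Het2, KO1, KO2 and KO3, so in KO1 most lay in other members. Cstdc5 was spread more widely, in 24.7% and 22.0% of Het members and 8.66% to 11.7% of KO members before thinning. Of red-cell barcodes, 22.4% and 17.0% carried it in Het and 7.94%, 8.71% and 8.82% in KO. Of epithelial barcodes, 29.9% and 26.4% carried it in Het and 11.1%, 14.5% and 14.97% in KO. Its detection was therefore lower in KO outside the members too. In alveolar-gene macrophages its summed level did not fall (log2 fold change 0.78). The part of this wider fall in the member result was not tested. The members with at least 3 neutrophil markers were then left out, an analysis chosen after seeing the data. Cstdc5 had a log2 fold change of -1.52 and Csta2 of -4.14, both called. Cstdc4 and Stfa1 were also called, while Stfa3 and Stfa2 were not. Olfm4, Lcn2, Wfdc21 and Stfa2l1 then had too few UMIs to be tested. Removing the highest doublet scores took out 4 and 3 members in Het and 3, 5 and 9 in KO. After that, none of the 10 named granule and stefin A genes passed (edgeR adjusted p from 0.0947 to 0.991). Csta2, Lcn2 and Olfm4 then had log2 fold changes of -2.93, -1.01 and -0.35, so much of the fall of Lcn2 and Olfm4 rested on these few barcodes. Without Het1, 9 of the 10 did not pass (edgeR adjusted p from 0.103 to 0.289), and Lcn2 did. The interferon count without the neutrophil-marker members was 23 of 36. Haemoglobin was 3.65% and 3.09% of member UMIs in Het and 1.48%, 1.74% and 1.92% in KO, and 4 haemoglobin genes were called lower. Erythroid-marker UMIs came to 248 to 311 per Het member and to 149 to 185 per KO member, against 2438 to 2726 per red-cell barcode. The part of such RNA in these calls was not tested.

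The lists that follow held no gene that passed the test, and 9.38% of all genes tested had an unadjusted p under 0.05. On the list of resident LYVE1 and FOLR2 macrophage genes, 0 of 21 were called (5 had an unadjusted p under 0.05). Lyve1 had 248 and 586 CPM in Het and 234, 283 and 330 CPM in KO. Cd163 had 93.2 and 134 CPM against 56.4, 51.3 and 109 CPM, with overlapping groups. Among macrophage transcription factors 0 of 32 were called in edgeR (3 at an unadjusted p under 0.05), with a median of 0.01. Maf had 1323 and 1397 CPM against 1390, 1533 and 1628 CPM. Of 32 receptor genes 0 were called (6 unadjusted). Csf1r, the receptor for the macrophage growth factor CSF1, differed by a log2 fold change of 0.04.

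Clearance and scavenger receptors had 0 of 24 genes called by edgeR (4 at an unadjusted p under 0.05), iron and haem genes 0 of 21 (6), complement genes other than C1q 0 of 11 (5) and lipid genes 0 of 24 (9). MHC class I genes had 0 of 14 called (6), with a median of -0.33. The fold change was negative in 13 of them, and in 5121 of all 10092 genes tested. The alveolar macrophage programme had 0 of 13 called (5) in members. In alveolar-gene macrophages 22 of 29 of its genes were called lower, with a median of -0.85, against 486 of 11313 genes (4.30%) in that class. Early response, hypoxia and Zswim8-microRNA lists had 0 called of 20, 21 and 20 genes (5, 3 and 4). DESeq2 called 79 genes in all, against 102.

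The genotype by class term singled out genes whose change differed between C1q macrophages and their neighbours. Against monocytes, 22 of 10799 genes were called (0.204%), of which 7 had a positive term. Without KO2, 1 gene was called, which was not among the 22. Olfm4, Csta2, Wfdc21, Cstdc4 and Lcn2 had the most negative terms of those that met the naming limits, and kept their calls in 7, 6, 6, 4 and 8 of 11 alternatives. The monocyte rule allowed at most 1 of the neutrophil genes Retnlg, Camp, Ngp, Ltf and Ly6g, and the member rule had no such limit. The part of this unequal limit in these terms was not tested. Of the positive terms, those of Spp1 and Igf1 met the limits. Igf1, a growth factor of tissue macrophages, had 230 and 334 CPM in Het members and 335, 441 and 407 CPM in KO members, against 3.55 to 19.2 CPM in monocytes. Its term was 1.78 (edgeR adjusted p = 0.0163). Without Het2, without KO2 or with the rule on thinned barcodes it was not called. Spp1 had a term of 5.29 that rested on 80.8 CPM in the monocytes of Het1, where the other 4 libraries had 2.56 to 13.3 CPM. It kept its call in 6 of 11 alternatives, and lost it, among others, without Het1 or without KO2.

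Against alveolar-gene macrophages, 196 of 11061 genes were called (1.77%), with 305 called without KO1, 82 without KO2 and 66 without KO3. Tnf, the inflammatory cytokine, had 119 and 154 CPM in Het members and 341, 169 and 178 CPM in KO members, while alveolar-gene macrophages had 169 and 184 CPM against 37.7, 36.2 and 57.1 CPM. The term was 2.69 (edgeR adjusted p = 0.000607). Cd63, a protein of lysosome and endosome membranes, had 402 and 360 CPM in Het members and 512, 482 and 476 CPM in KO members, against 77.1 and 68.1 CPM and 29.2, 18.2 and 28.1 CPM in the other class (term 1.92). Fabp5, a fatty acid carrier, had a term of 1.63, with log2 fold changes of 0.61 in members and -0.99 in alveolar-gene macrophages. Tnf, Cd63 and Fabp5 kept their calls in all 11 alternatives, and their change within members alone did not pass the test. The most negative terms within the naming limits were those of Olfm4, Cstdc5, Stfa2, Stfa2l1 and Csta2, which kept their calls in 7, 10, 10, 8 and 4 of 11 alternatives.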

How the data were processed

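Deposited were raw UMI counts, 1 matrix for each library, written by Cell Ranger (version 4.0.0 in the submitters' processing notes, which also name the mm10 build); the annotation and barcode filter are not given in the sources used here. Total counts per library ran from 56608582 to 93708304 over 32285 genes. Rows were joined by Ensembl ID, and 32235 IDs matched GENCODE M21 (GRCm38, counted from 1).

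Members, lists and tests were chosen with earlier results of these data known. UMIs were summed over members per library and fitted with edgeR 4.0.16 (R 4.3.3; quasi-likelihood, TMM, filterByExpr, two-sided, Benjamini-Hochberg); genes the rule reads were left out of counts. CPM used TMM-scaled sizes in gene comparisons and plain totals in the descriptions of classes. Class terms used the library as a block. Monocytes had at least 2 of Ly6c2, Ccr2, Vcan and Plac8. They had at most 1 C1q-set gene, at most 2 alveolar genes and at most 1 of Retnlg, Camp, Ngp, Ltf and Ly6g. Doublets stayed in the main analysis; the alternative removed the highest scores against simulated doublets (scanpy 1.11.5), at 0.8% per 1000 barcodes. Named genes had an adjusted p under 0.05, groups that did not overlap, at least 20 CPM in the higher group and 3 times the UMIs per red-cell barcode (over 50% haemoglobin); sex-linked, haemoglobin and other cell types' marker genes were left out. Up to 12 genes per direction were named by size of change, up to 4 called genes per list and direction, and 5 per direction for class terms. Other genes were picked as examples after their values were seen. The values of 1 listed interferon-stimulated gene are not reported here; it stays in the counts. Tested on simulated data, the member fit recovered 56.7% of 200 genes changed by 1 on the log2 scale, with 6 false calls among 9875 genes, and the class terms 28.9% (monocytes) and 40.6% (alveolar-gene macrophages).

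Libraries of a group differed by more than sampling noise, so none was counted as a repeat. Alternatives covered DESeq2 1.42.0, scaling, filters, barcode rules, sex, the replicate block and leaving out each library.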

Additional observations from a re-analysis of the deposited data

Results flagged for a closer look

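The results that follow are genes whose difference between Het and KO in C1q macrophages differed from that in another class by the genotype by class term of edgeR's quasi-likelihood test, with Benjamini-Hochberg adjusted p under 0.05. The value is the log2 difference of the fold changes, C1q macrophages minus the other class. Against monocytes, Olfm4 had -3.84, Csta2 -3.31, Wfdc21 -2.77, Cstdc4 -2.71 and Lcn2 -2.62, while Spp1 had 5.29 and Igf1 1.78. The monocyte rule limited neutrophil genes and the member rule did not. Against alveolar-gene macrophages, Olfm4 had -4.81, Cstdc5 -4.18, Stfa2 -3.99, Stfa2l1 -3.30 and Csta2 -3.07, while Tnf had 2.69, Gm12840 2.17, Cd63 1.92, Fabp5 1.63 and Dst 1.61. Without KO2, none of the 22 calls against monocytes was made and 1 other gene was called, so Spp1, Igf1 and the granule and stefin genes were not called.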

How the results depend on the processing

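The difference in share of 5.06 percentage points was 4.93, 5.18, 5.15, 4.90 and 5.12 when Het1, Het2, KO1, KO2 or KO3 was left out (4.90 to 5.18). It was 4.88, 5.08, 3.65, 5.39 and 5.19 with stricter filters, doublet scores removed, a stricter rule, the rule on thinned barcodes and no alveolar limit (added after seeing the data). Without mixed barcodes the difference was 3.94 (exact two-sided permutation p = 0.2). Mixed barcodes were 55 of 186 and 47 of 173 members in Het, and 115 of 277, 26 of 311 and 91 of 358 in KO. The edgeR fit on barcode numbers, which also tests the share, gave a log2 value of 1.18, past the threshold.

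The 102 genes called between Het and KO became 333 with no low-count filter, 44 with sex as a covariate, 50 without mixed barcodes, 63 without doublet scores and 21 to 181 over left-out libraries, where a lone Het library was assumed to vary like the KO group. The 24 interferon-stimulated genes became 14 with DESeq2, 9 with sex, 11 without mixed barcodes, 14 with the thinned rule and 4 to 33 over left-out libraries; none was called higher. Terms against monocytes (22) became 8 without doublet scores, 40 with the thinned rule, 13 with at least 10 UMIs in 4 sums and 1 to 47 over left-out libraries. Terms against alveolar-gene macrophages (196) became 128 with stricter filters, 122 with the stricter rule and 66 to 305 over left-out libraries. Of the named genes, Stfa3 changed sign, to 0.046 without doublet scores. Causes were not tested.

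With the replicate block, 346 genes were called and the share differed by 5.12 points; same-numbered libraries' deviations correlated at 0.073 and 0.061 across genes, so the numbers were not taken to pair the embryos. The 44 to 71 members per library with fewer than 3000 UMIs limit the detection of low genes.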
